A study of Mus musculus with 12 samples.

Results

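Arhgap36, Baiap3 and Calcr are 3 of the 55385 genes in the expression table of a study of stress and krill oil in the mouse brain. They were picked by name because of how they had behaved in these libraries: Arhgap36 and Calcr for being high in every MS_W library, and Baiap3 for being low in every MS_O library. The differences that involve MS_W or, for Baiap3, MS_O are therefore described here without a test. Each gene had 1 row in the table, and all 3 reached the mean of 0.1 FPKM that was asked of a gene to be tested, as did 21393 genes in all. Calcr reached it only through MS_W: its mean over the 9 libraries of the other groups was 0.0906 FPKM. FPKM counts sequenced fragments per kilobase of transcript, scaled to the mapped fragments of the library. It thus allows for the length of genes and the depth of libraries, but not for a different make-up of the libraries.

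The mice were wild-type males of the C57/BL6J strain, 8 weeks old when obtained, with 3 mice in each of the 4 groups. Each mouse gave 1 library of poly(A) RNA from tissue described as whole brain. Control mice were given water (C_W) or krill oil (C_O), and mice under chronic unpredictable mild stress (CUMS), a schedule of changing stressors such as restraint, wet or tilted cages, noise and light, were given water (MS_W) or krill oil (MS_O). CUMS lasted 4 weeks, and krill oil was given into the stomach once a day over 5 weeks at a dose of 200 mg/kg. The water groups were given an equal volume of water.

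Arhgap36 encodes a protein of a GTPase-activating family that binds and inhibits the catalytic subunit of protein kinase A (PKA) and thereby activates the GLI factors of the Hedgehog pathway. Baiap3 encodes a relative of the Munc13 proteins, with calcium-binding C2 domains, that acts in the recycling and maturation of dense-core vesicles, the carriers of neuropeptides. Calcr encodes the calcitonin receptor, a G protein-coupled receptor that raises cyclic AMP and that forms amylin receptors with the RAMP proteins. In the adult brain Baiap3 and Calcr are known from the hypothalamus and Calcr also from the brainstem. In tissue RNA, fewer cells expressing a gene, less RNA per cell and less of their region in the sample cannot be told apart.

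Arhgap36 (ENSMUSG00000036198) lies on the plus strand at chrX:49463945-49500244 in mm10, spans 36300 bases and has 5 annotated transcripts, 3 of them coding. Baiap3 (ENSMUSG00000047507) lies on the minus strand at chr17:25242659-25256364 and has 9 transcripts, 5 of them coding. Calcr (ENSMUSG00000023964), also on the minus strand, spans 79035 bases at chr6:3685680-3764714 and has 5 transcripts, all coding. The longest coding transcripts have 13, 34 and 16 exons, respectively. The 3' end of Baiap3 overlaps Tsr3 on the opposite strand, and whether the counting used the strand is not given in the sources used here. Tsr3 had 13.8 ± 0.920 FPKM in C_W and 14.4 ± 1.26 in MS_W (SD, n = 3).

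The sequence before each gene's start is shown because the 3 genes, by the choice that was made of them, had like patterns over the libraries. The sequences are the 250 bases upstream of a RefSeq start (GRCm38.p6, the assembly that mm10 names), read 5' to 3' on the gene's own strand, and for Calcr both RefSeq starts are shown. They lie at chrX:49463695-49463944 (Arhgap36), chr17:25256365-25256614 (Baiap3), chr6:3764714-3764963 (Calcr, outer start) and chr6:3763624-3763873 (Calcr, inner start). Capitals mark exact matches, on either strand, to 7 motifs. They include the cAMP response element TGACGTCA, its shorter element TGACG, which is also part of it, and the TATA box TATAAA. The others are the E-box CACGTG, the GLI site GACCACCCA, the GC box GGGCGG and AGAACA, a part of the glucocorticoid receptor element.
Arhgap36: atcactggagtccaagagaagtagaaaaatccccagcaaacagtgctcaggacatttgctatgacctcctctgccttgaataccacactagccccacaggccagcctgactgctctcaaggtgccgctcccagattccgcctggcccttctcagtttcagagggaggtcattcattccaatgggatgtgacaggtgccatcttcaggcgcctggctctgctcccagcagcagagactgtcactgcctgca
Baiap3: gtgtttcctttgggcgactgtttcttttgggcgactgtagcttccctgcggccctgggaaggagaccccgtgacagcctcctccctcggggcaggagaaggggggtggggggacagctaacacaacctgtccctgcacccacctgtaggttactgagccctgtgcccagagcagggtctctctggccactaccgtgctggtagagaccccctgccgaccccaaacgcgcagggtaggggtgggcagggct
Calcr outer start: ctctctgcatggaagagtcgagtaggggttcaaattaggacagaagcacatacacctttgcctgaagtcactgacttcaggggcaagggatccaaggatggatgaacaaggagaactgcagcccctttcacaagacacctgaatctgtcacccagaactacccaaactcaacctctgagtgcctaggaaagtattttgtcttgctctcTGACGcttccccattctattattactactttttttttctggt
Calcr inner start: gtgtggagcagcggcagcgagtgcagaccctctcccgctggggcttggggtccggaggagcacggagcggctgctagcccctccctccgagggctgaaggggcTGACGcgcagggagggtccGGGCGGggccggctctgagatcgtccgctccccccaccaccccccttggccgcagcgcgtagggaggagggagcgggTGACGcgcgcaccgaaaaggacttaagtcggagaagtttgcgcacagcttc
The windows of Arhgap36 and Baiap3 held none of these 7 motifs, nor did the window of a further Arhgap36 start at chrX:49470200-49470449. The outer Calcr window held 1 shorter element, beginning 42 bases before the start, and the inner window held 2 shorter elements and 1 GC box. Shorter elements were present in 17.8% of the 32851 windows of the same length in the RefSeq table, and GC boxes in 32.7%. The full element was in 1.55% of windows, the TATA box in 12.4%, the E-box in 6.02%, the GLI site in 0.225% and AGAACA in 16.1%. The inner Calcr window was rich in GC, with 70.8% GC and 24 CpG, whereas the outer window had 46% GC and 2 CpG. Baiap3 had 64.4% GC and 9 CpG, and Arhgap36 had 55.2% GC and 3 CpG, beside medians of 52.4% and 6 over all windows. A match, or the lack of one, is a description of these letters only.

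The libraries C_O72 and MS_W95 were unlike the other 10. Their log2(FPKM + 1) values over the tested genes correlated with each other at r = 0.970, the highest value of either with any of the other 10 libraries was 0.937, and the lowest value among those 10 was 0.959. Markers of the hindbrain and spinal cord (14 genes, among them Hox genes and Slc6a5) summed to 104 FPKM in C_O72 and 56.9 FPKM in MS_W95, and to between 0.0179 and 0.566 FPKM in the other 10 libraries. Results are therefore given with and without these libraries. The total of estimated counts was between 50912906 and 75678721 per library, and every C_W library (at least 69768244) was deeper than every MS_W library (at most 61608502).

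Arhgap36 was near the lower end of detection in the C_W libraries and was the most even of the 3 genes across the stressed, water-treated mice. Its FPKM was 0.186, 0.192 and 0.0982 in C_W1, C_W64 and C_W70, and 4.70, 5.05 and 5.16 in MS_W31, MS_W75 and MS_W95. The lowest MS_W library was 24.5 times the highest C_W library. In MS_O13, MS_O46 and MS_O78 it was 0.277, 0.490 and 0.234, below every MS_W library and just above every C_W library. The C_O group was split, with 0.110 in C_O15, 1.01 in C_O30 and 6.23 in C_O72, and C_O72 was the highest of all 12 libraries. The estimated counts behind these values were 29 to 55 in C_W, 1005 to 1228 in MS_W, 52 to 108 in MS_O and 30 to 1219 in C_O, so the low groups rest on few fragments.

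Mean Arhgap36 was 0.159 ± 0.0525 FPKM in C_W and 4.97 ± 0.240 in MS_W (SD, n = 3), and 0.334 ± 0.137 in MS_O and 2.45 ± 3.30 in C_O. The MS_W mean was 31.3 times the C_W mean and 14.9 times the MS_O mean. On the scale of log2(FPKM + 1), which understates changes of low genes, MS_W was higher than C_W by 2.37, and by 2.34 without MS_W95. In the order of means, MS_W and C_O overlapped because of C_O72, C_O and MS_O overlapped, and MS_O and C_W did not, although the lowest MS_O value was only 1.21 times the highest C_W value.

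Baiap3 was the most abundant of the 3 genes. Its FPKM was 1.49, 1.35 and 0.746 in C_W1, C_W64 and C_W70, and 20.6, 17.4 and 13.4 in MS_W31, MS_W75 and MS_W95. Every MS_W library was above every library of the other groups, and the lowest was 8.99 times the highest C_W library. In MS_O13, MS_O46 and MS_O78 it was 2.09, 3.17 and 3.06. These values were low beside MS_W, at most 3.17 against at least 13.4, but each was above every C_W value. In C_O15, C_O30 and C_O72 it was 0.501, 4.01 and 7.88, so that C_O held the lowest library of all, and C_O30 and C_O72 were above all of MS_O.

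Mean Baiap3 was 1.19 ± 0.395 FPKM in C_W, 17.1 ± 3.62 in MS_W, 2.77 ± 0.592 in MS_O and 4.13 ± 3.69 in C_O (SD, n = 3). The MS_W mean was 14.3 times the C_W mean and 6.17 times the MS_O mean. The log2 difference between MS_W and C_W was 3.04, or 3.20 without MS_W95, and that between MS_O and MS_W was -2.26, or -2.41. In the order of means, MS_W did not overlap C_O (13.4 at the lowest against 7.88 at the highest), C_O overlapped both MS_O and C_W, and MS_O did not overlap C_W.

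Calcr was the least abundant. It was listed at the table's lowest value of 0.0001, with an estimated count of 0, in all 3 C_W libraries, although these were the deepest group in the median. In MS_W31, MS_W75 and MS_W95 it was 1.297, 1.294 and 0.836 FPKM, from 228 to 327 estimated counts. In MS_O13 and MS_O46 it was 0.0694 and 0.0751, and in MS_O78 it was listed at 0.0001. In C_O15 it was listed at 0.0001, and in C_O30 and C_O72 it was 0.0829 and 0.587. All MS_W libraries were thus above all others, and the lowest was 11.1 times the highest MS_O library. No fold is given against C_W, where Calcr was not detected. The log2 difference between MS_W and C_W was 1.09, or 1.20 without MS_W95, and that between MS_O and MS_W was -1.02, or -1.13.

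**Figure D1:**
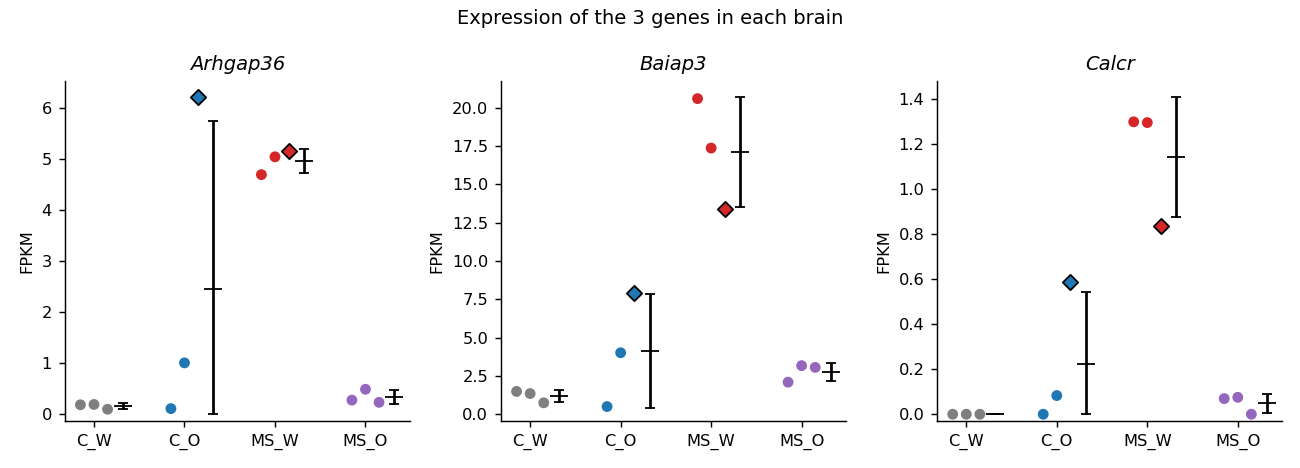
FPKM of Arhgap36, Baiap3 and Calcr in each of the 12 brains, by group. Points are libraries, diamonds are C_O72 and MS_W95, and bars are the mean ± SD of 3 libraries, with the lower arm ended at 0; all 3 genes were high in the 3 MS_W libraries, and C_O72 was the highest C_O library for each.

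The 3 genes were all higher in every MS_W library than in any C_W library, as were 16.3% of the genes tested, and lower in every MS_O than in any MS_W library, as were 7.66%. The genes were picked for these contrasts, so nothing is read from these counts. Baiap3 and Calcr were also above every C_O library in MS_W, beside 9.05% of genes. Arhgap36 was not, because of C_O72. A level in MS_W above all 9 other libraries, as Baiap3 and Calcr had, was found in 1.29% of the genes tested, and in 3.57% when C_O72 was set aside, in which case Arhgap36 had it too. All 3 genes were higher in the 3 MS_W libraries and C_O72 than in the other 8 libraries, as were 2.6% of genes. Arhgap36 and Baiap3, but not Calcr, were higher in every MS_O than in any C_W library, beside 11.2% of genes.

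**Figure D2:**
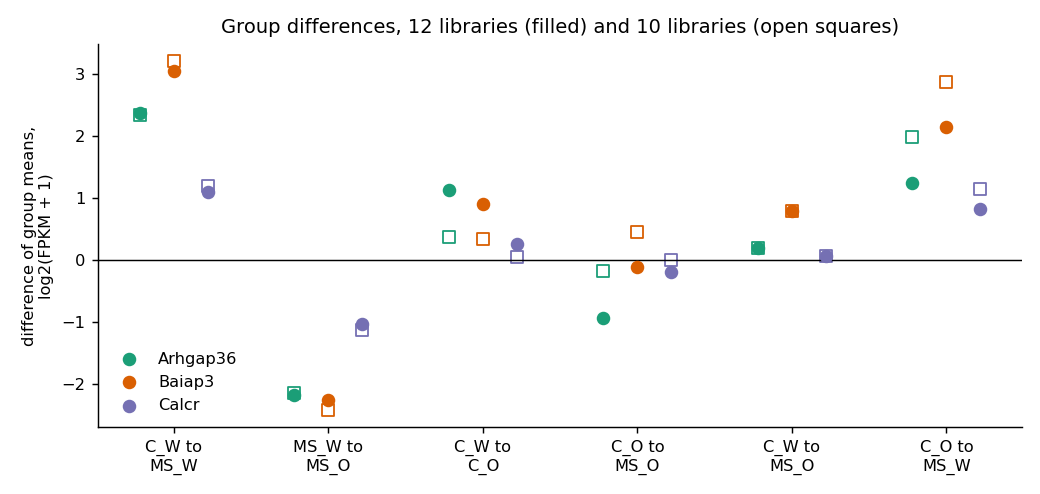
Difference between group means of log2(FPKM + 1), second group minus first, for each gene in the 6 pairs of groups. Filled circles use 12 libraries and open squares the 10 without C_O72 and MS_W95; the differences with MS_W stayed large in both, while those between C_W and C_O were smaller in the 10 libraries for all 3 genes.

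The comparisons that the choice of genes did not use were C_O against MS_O for Arhgap36 and Calcr, and C_W against C_O for Baiap3. They ask whether stress under krill oil, or krill oil alone, went with a different level. None passed limma's test with Benjamini-Hochberg adjustment over all genes tested, which 0.00467% of genes (1 gene) passed between C_O and MS_O and no gene between C_W and C_O, where 760 had an unadjusted p under 0.05 and where edgeR and DESeq2 called 0 and 54 genes after adjustment. Between C_O and MS_O edgeR called 1 gene and DESeq2 169. The unadjusted p of the 3 tests was 0.0952, 0.240 and 0.103 by limma. Arhgap36 was lower in MS_O than in C_O by 0.93 on the log2 scale (SE 0.505, 95% interval of the difference -2.04 to 0.19, adjusted p = 0.622). Without C_O72 and MS_W95 the difference was -0.17 (interval -0.66 to 0.33, adjusted p = 0.751). The first estimate thus rested largely on C_O72. For Calcr, MS_O minus C_O was -0.19 (SE 0.155, interval -0.54 to 0.15, adjusted p = 0.727). Calcr was tested only because of its level in MS_W, and of the 6 libraries compared only C_O72 had more than 0.0829 FPKM. Without the same libraries it was 0.0096 (adjusted p = 0.961), so its sign depended on C_O72. For Baiap3, C_O minus C_W was 0.90 (SE 0.505, interval -0.22 to 2.02, adjusted p = 0.908), and 0.34 without the same libraries (interval -0.65 to 1.33, adjusted p = 1.0). These intervals are wide, and they do not show that the groups had like levels. The study's criteria for a differentially expressed gene (DEG) were p under 0.05 before adjustment and group means differing by more than 1 in log2. The study names the R package Ballgown for this, whereas p here is limma's, so DEGs counted here need not be those of the study. With limma's p the criteria were met by 3.57% of genes between C_O and MS_O and by 1.76% between C_W and C_O. None of the 3 genes met them in the tests above.

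The ratio of Baiap3 to Arhgap36 within a library was 8.01, 7.01 and 7.59 in the C_W libraries, 4.38, 3.44 and 2.59 in the MS_W libraries, and 7.55, 6.47 and 13.1 in the MS_O libraries. In C_O15, C_O30 and C_O72 it was 4.53, 3.98 and 1.27. The ratios of MS_W lay below all those of C_W and MS_O, those of C_W within the range of MS_O and those of MS_W within the range of C_O. No test was run, and the ratios of C_W and MS_O rest on 29 to 108 estimated counts of Arhgap36.

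The other genes of the calcitonin family did not show the pattern of Calcr. Of 10 peptides, receptors and co-receptors besides Calcr, 8 were tested, and Iapp, which encodes amylin, was listed at 0.0001 in every library. In C_W against MS_W, 1 of the 8 met the DEG criteria, and it was lower, where 2.1% of all genes were DEGs lower in MS_W. This was Ramp3, a co-receptor that forms an amylin receptor with Calcr and a receptor for adrenomedullin with Calcrl, with 13.2 ± 2.55 FPKM in C_W and 5.25 ± 2.13 in MS_W (log2 difference -1.22, SE 0.476, adjusted p = 0.425 by limma). Leaving out any 1 of C_W64, C_W70, MS_W31 and MS_W75 ended this call. Ramp1, the partner of Calcrl in the receptor for calcitonin gene-related peptide, had 18.6 ± 1.43 FPKM in C_W and 20.2 ± 3.27 in MS_W, and Ramp2 had 5.37 ± 0.435 and 5.70 ± 0.274. Calcrl itself had 0.485 ± 0.0340 and 0.761 ± 0.168. The co-receptor transcripts were thus more abundant per length than Calcr in every group. The peptide genes Calca (0.396 ± 0.127 and 1.47 ± 1.34) and Adm (1.24 ± 0.366 and 0.771 ± 0.356) did not pass, and Calcb was at most 2.61 FPKM, in C_O72. The median log2 difference of the 8 genes was 0.09, beside 0.06 over all genes. In MS_W against MS_O, C_O against MS_O and C_W against C_O none of the 8 met the criteria. Without C_O72 and MS_W95, Adm also met them, as lower in MS_W than in C_W and higher in MS_O than in MS_W.

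Among 24 genes of the Hedgehog pathway and of PKA besides Arhgap36, 22 were tested, and 2 met the DEG criteria as higher in MS_W than in C_W, beside 2.5% of all genes. Ptch1, the Hedgehog receptor and a target of the pathway, had 2.93 ± 0.424 FPKM in C_W and 6.77 ± 3.17 in MS_W (log2 difference 0.91, SE 0.338, adjusted p = 0.401 by limma). Smo, the transducer that Ptch1 restrains, had 1.99 ± 0.141 and 4.06 ± 1.34 (log2 difference 0.73, SE 0.289, adjusted p = 0.431 by limma). Both were highest in C_O72 or MS_W95: Ptch1 was 7.45 and 10.3 FPKM there, and Smo 5.63 and 5.61. Without these libraries neither met the criteria, and 1 other gene of the list did, as higher in MS_W. Leaving out C_W1, C_W64 or MS_W95 alone left 1 gene of the list meeting them. Without MS_W95 this was neither Ptch1 nor Smo.

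The GLI factors, through which Hedgehog signals reach their target genes, did not pass. Gli1, itself a target, had 0.561 ± 0.0749 FPKM in C_W and 1.19 ± 1.01 in MS_W, Gli2 had 0.638 ± 0.0488 and 0.821 ± 0.177, and Gli3 had 0.601 ± 0.0492 and 0.746 ± 0.148. Of the genes for the catalytic subunit of PKA, the protein that Arhgap36 inhibits, Prkaca had 77.2 ± 4.93 and 92.5 ± 4.91 FPKM, and Prkacb 30.2 ± 20.2 and 27.3 ± 16.2. The levels of 12 of the 22 genes in MS_W lay above all C_W values, where 16.3% of all genes did, and the median log2 difference was 0.26, or 0.19 in the 10 libraries. In the other 3 comparisons no gene of this list met the criteria.

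Among 27 genes of the Munc13 family and of dense-core vesicles besides Baiap3, all tested, 3 were DEGs higher in MS_W than in C_W and 1 was lower, beside 2.5% and 2.1% of all genes. Of the 3, only 1 was left without C_W70, and 2 without C_W1 or MS_W95. Unc13c, a Munc13 protein that primes synaptic vesicles and is known from cerebellar granule cells, came nearest to the pattern of Baiap3. It had 1.51 ± 0.368 FPKM in C_W, 7.29 ± 2.90 in MS_W, 1.53 ± 0.706 in MS_O and 4.60 ± 3.08 in C_O. Its log2 difference was 1.68 in C_W against MS_W (SE 0.388, adjusted p = 0.243 by limma) and -1.69 in MS_W against MS_O (adjusted p = 0.432). It met the DEG criteria in all 4 comparisons, and without C_O72 and MS_W95 in these first 2. The relatives Unc13a (25.1 ± 2.29 and 16.6 ± 6.43 FPKM in C_W and MS_W), Unc13b (1.70 ± 0.217 and 1.03 ± 0.431) and Unc13d (0.187 ± 0.107 and 0.615 ± 0.978) did not pass.

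The other higher genes of the vesicle list were Scg2, a granin stored in dense-core vesicles, with 82.4 ± 16.1 FPKM in C_W and 169 ± 26.6 in MS_W, and Syt9, a calcium sensor of vesicle release, with 2.64 ± 0.805 and 7.75 ± 4.50. Scg2 was still 163 ± 54.9 in MS_O, and Syt9 6.29 ± 2.41, whereas Baiap3 was low there. Syt7, another calcium sensor, was lower in MS_W (33.3 ± 18.7 and 10.1 ± 1.52), with C_W values of 39.8, 47.9 and 12.3. Cadps and Cadps2, which prime dense-core vesicles, had 15.0 ± 1.44 and 9.24 ± 0.455 FPKM in C_W and 14.1 ± 1.86 and 9.72 ± 6.04 in MS_W, and did not pass. The median of the list was -0.10 in C_W against MS_W, so most vesicle genes did not share the height of Baiap3. In the 10 libraries Syt9 no longer met the criteria in this comparison. Of the other comparisons, Unc13c was the only DEG in MS_W against MS_O and in C_O against MS_O, lower in both, beside 1.39% and 0.753% of all genes. C_W against C_O had Unc13c as higher and Syt7 as lower, beside 0.865% and 0.897%. Leaving out C_O30, C_O72, MS_O46 or MS_O78 ended the call of Unc13c between C_O and MS_O. Leaving out C_W1, C_W64, C_O30 or C_O72 ended its call between C_W and C_O. In the 10 libraries, C_O against MS_O had Scg2 and Syt9 as higher and Unc13b as lower, and C_W against C_O had only Syt7.

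**Figure D3:**
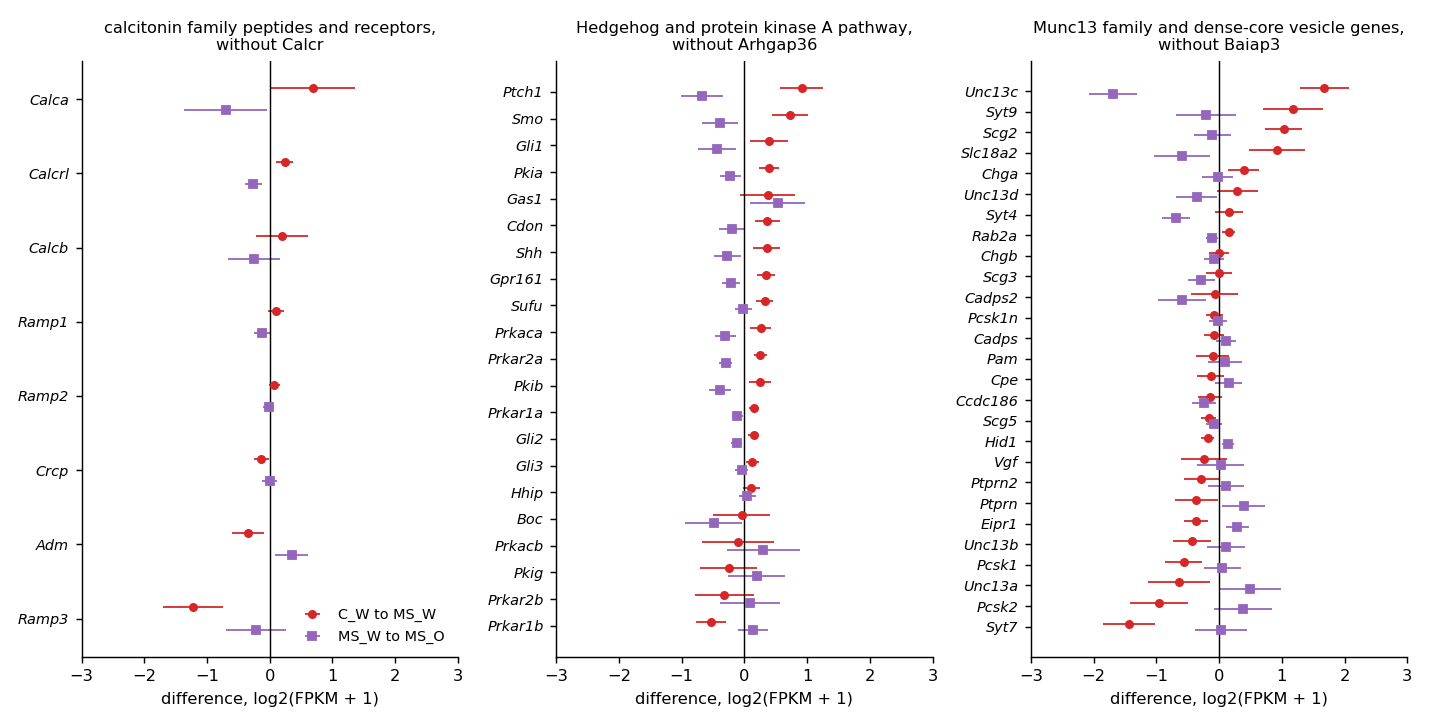
Difference in log2(FPKM + 1) with its SE from limma for tested genes of the pathway lists (1 tested Hedgehog gene is not drawn), for C_W to MS_W (red circles) and MS_W to MS_O (purple squares), 3 libraries per group. Unc13c (1.68 and -1.69) moved most in both, and Ramp3 lay lowest of the calcitonin family at -1.22.

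Markers of the hypothalamus moved with the 3 genes. Over 30 marker genes the summed level was 41.3 to 57.6 FPKM in C_W, 115 to 281 in MS_W, 55.0 to 118 in MS_O and 37.2 to 89.8 in C_O. Hcrt, Ghrh, Sim1, Six6, Hmx2 and Hmx3 were at 0.0001 in all C_W libraries. Of the 24 tested, 16 met the DEG criteria as higher and 1 (Kiss1) as lower in MS_W than in C_W, beside 2.5% and 2.1% of all genes, with a median log2 difference of 1.10. Of the 16, 3 (Hcrt, Nkx2-1 and Fezf1) were tested only because of their level in MS_W, which favours that outcome. Being tested for that level equally favours a call of these 3 as lower in MS_O than in MS_W, with or without C_O72 and MS_W95. Of the 21 other tested markers, 13 were higher in MS_W than in C_W. Without MS_W31, 9 of the 24 were higher. In MS_W against MS_O, 11 were lower, where 1.39% of all genes were, and none higher (median -0.92). None passed at an adjusted p under 0.05 by limma in the 12 libraries, with 18 at an unadjusted p under 0.05 in the first comparison and 12 in the second. Without C_O72 and MS_W95 the counts were 17 higher and 1 lower, then 15 lower, of which 12 and 10 had an adjusted p under 0.05. In C_O against MS_O, 2 (Trh and Gnrh1) were higher, beside 2.82% of all genes, and in C_W against C_O, 1 (Ecel1), beside 0.865%. The part of these markers in the levels of Arhgap36, Baiap3 and Calcr was not tested.

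The most abundant of these markers followed the 3 genes unequally. The peptide gene Cartpt had 3.22 ± 1.21 FPKM in C_W, 21.4 ± 7.95 in MS_W and 8.03 ± 3.38 in MS_O, and Nnat, an imprinted gene, had 12.7 ± 6.99, 40.2 ± 21.3 and 15.6 ± 4.78. The imprinted gene Peg3 had 18.2 ± 2.21, 27.6 ± 4.04 and 16.6 ± 0.991. Trh, the precursor of thyrotropin-releasing hormone, had a mean of 33.1 ± 22.4 FPKM in MS_O and of 17.2 in MS_W, a difference within the spread. Avp, the vasopressin precursor, was 32.3, 59.3 and 0.185 FPKM in MS_W31, MS_W75 and MS_W95. In MS_W95, Cartpt was 28.8 FPKM, Peg3 31.1 and Nnat 21.4, and the sum of the list was 115, beside 5.16 FPKM of Arhgap36, 13.4 of Baiap3 and 0.836 of Calcr.

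Other regions moved as well. The summed level of 10 cortex markers was 552 to 592 FPKM in C_W, 185 to 232 in MS_W and 304 to 425 in MS_O, and that of 10 striatum markers was 96.4 to 186, 153 to 1031 and 382 to 602. Between C_W and MS_W, 5 striatum markers were DEGs higher and 6 cortex markers DEGs lower in MS_W, beside 2.5% and 2.1% of all genes. Without C_O72 and MS_W95, all 10 striatum markers were DEGs higher, each at an adjusted p under 0.05 by limma. Their median log2 difference was 2.79, beside 1.41 for hypothalamus markers. Of the cortex markers, 5 were DEGs lower and 2 passed after adjustment. In MS_W against MS_O, 3 striatum markers were DEGs lower then, none passing adjustment. All 10 olfactory bulb markers were DEGs higher in MS_O than in C_O, with a median log2 difference of 2.50, and their sums were 12.5 to 54.9 FPKM in C_O and 68.4 to 347 in MS_O. This is the comparison tested for Arhgap36 and Calcr. Cerebellum markers summed to 1107 FPKM in MS_W95 and 330 in C_O72, and to at most 52.5 in the other libraries. Choroid plexus markers summed to 5081 FPKM in C_O72 and 1957 in MS_W95, and to 30.2 to 919 in the others. In C_O72, where the 3 genes were high for a control, the cortex sum was 185 FPKM, the hypothalamus sum 89.8 and the hindbrain sum 104. Arhgap36, Baiap3 and Calcr were 6.23, 7.88 and 0.587 FPKM there. C_O30 had a like hypothalamus sum of 88.0, with 1.01, 4.01 and 0.0829 FPKM of the 3 genes. Markers of neurons in general summed to 1485 to 1588 FPKM in C_W and 1270 to 1324 in MS_W. The part of these regions in the results was not tested.

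**Figure D4:**
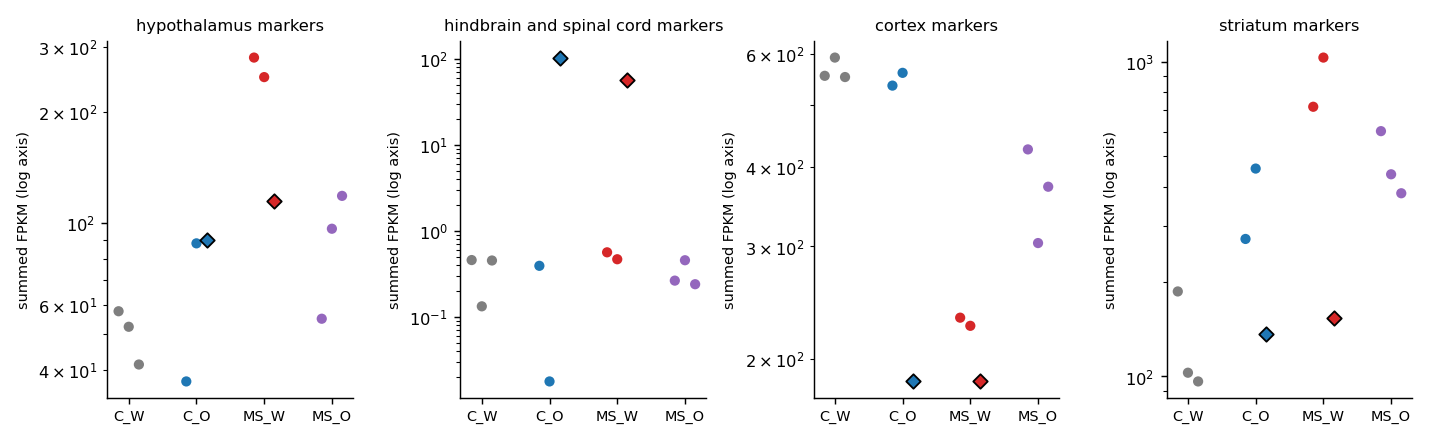
Summed FPKM of the region marker lists (30 hypothalamus, 14 hindbrain and spinal cord, 10 cortex and 10 striatum genes) in each library, by group, on log axes. Diamonds are C_O72 and MS_W95, which alone had hindbrain sums of 56.9 FPKM or more; hypothalamus sums were 115 to 281 in MS_W and overlapped those of MS_O, which reached 118.

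The genes with the pattern most like each of the 3 were found from the root mean square (RMS) difference between standardized log2(FPKM + 1) profiles over the 12 libraries, which is 0 for profiles of the same shape. It is a description over 21392 genes that share libraries, with a median RMS difference of 1.25 to 1.27 from each of the 3 genes. The nearest gene to Arhgap36 was Igsf1 (0.139), which encodes an immunoglobulin-type membrane protein, followed by P2ry1, a purine receptor, Arl10, Pgr15l and Gpx3, a secreted glutathione peroxidase. Igsf1 had 0.257 ± 0.179 FPKM in C_W, 3.47 ± 0.202 in MS_W, 0.489 ± 0.0802 in MS_O and 1.61 ± 2.06 in C_O, with 3.98 in C_O72.

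The nearest to Baiap3 were Stk32b (0.183), a kinase, Gnl3l, AW551984, Gpr101, an orphan receptor, and Tmem130. AW551984 had 0.703 ± 0.183 FPKM in C_W and 7.23 ± 0.847 in MS_W, whereas Gnl3l ranged only between means of 33.9 and 41.1 FPKM, so that alike patterns did not mean alike sizes. The nearest to Calcr were Dlk1 (0.162), an imprinted gene for a Notch-like membrane protein, Cckar, a cholecystokinin receptor, the imprinted genes Peg10 and Magel2, and Gpr101. Cckar, like Pgr15l near Arhgap36, reached the filter on FPKM only through MS_W, which favours such a pattern. Dlk1 had 0.187 ± 0.0655 FPKM in C_W, 9.28 ± 0.544 in MS_W and 0.424 ± 0.296 in MS_O. The 3 genes were at RMS differences of 0.322 to 0.368 from each other, which the choice of genes by their levels in these libraries favoured. Of the 24 tested hypothalamus markers, 5, 6 and 8 were in the nearest 1% of genes to Arhgap36, Baiap3 and Calcr. Of the 22 Hedgehog and PKA genes 1, Prkar1a, which encodes a regulatory subunit of PKA, was in the nearest 1% to all 3 genes, at ranks 33, 90 and 86 for Arhgap36, Baiap3 and Calcr. Of the vesicle genes, Unc13c was, to Arhgap36 (rank 47) and Calcr (rank 158) but not to its relative Baiap3 (rank 275). Of the calcitonin family none was, to any of the 3. Without C_O72 and MS_W95, 0, 2 and 1 of the 5 nearest genes remained for Arhgap36, Baiap3 and Calcr, and 11 hypothalamus markers were in the nearest 1% to each. Unc13c was then in the nearest 1% to none of the 3 (ranks 228, 778 and 336). Prkar1a was in it for Arhgap36 and Calcr (ranks 139 and 213) but not for Baiap3.

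**Figure D5:**
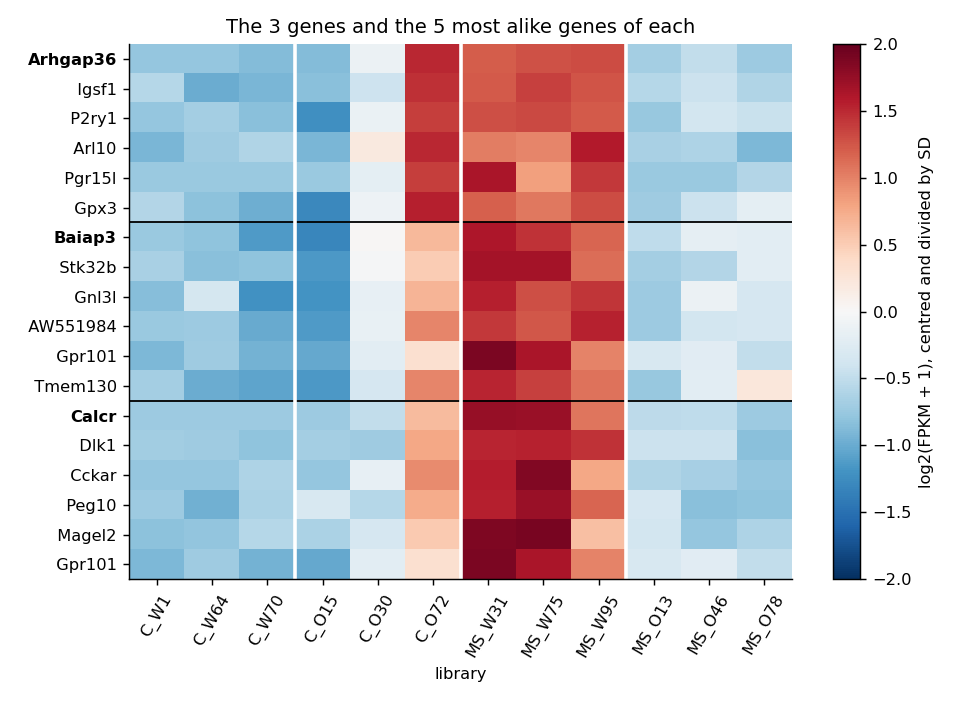
Standardized log2(FPKM + 1) (mean 0 and SD 1 over the 12 libraries) of Arhgap36, Baiap3, Calcr (bold) and the 5 genes with the smallest RMS difference from each. Red is high and blue low; in the block of Arhgap36, every gene was higher in C_O72 than in the lowest MS_W library, and in the blocks of Baiap3 and Calcr every gene but Cckar was lower there.

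The neighbours of the 3 genes on their chromosomes mostly did not share the pattern. Within 500 kb, 3 genes near Arhgap36, 33 near Baiap3 and 5 near Calcr were tested, and 1, 2 and 0 of them were DEGs between C_W and MS_W, all higher in MS_W, beside 2.5% of all genes. The 1 near Arhgap36 was Igsf1, 282292 bases to its right at chrX:49782536-49797749 and the gene of nearest pattern (log2 difference 1.84, SE 0.398, adjusted p = 0.210 by limma). Near Baiap3 they were Sstr5, a somatostatin receptor, with 0.0432 ± 0.0537 FPKM in C_W and 0.410 ± 0.206 in MS_W, and Jpt2, with 0.777 ± 0.0637 and 1.80 ± 0.470. Sstr5 was tested only because of its level in MS_W, which favours a call as higher there. The nearest tested genes on either side of Arhgap36 were Enox2 (1.69 ± 0.227 FPKM in C_W and 2.44 ± 0.329 in MS_W) and Gm14719 (1.70 ± 0.421 and 1.43 ± 0.207). Beside Baiap3, Tsr3 is given above, and beside Calcr they were Vps50 (6.49 ± 0.394 and 5.27 ± 0.441) and Gng11 (6.83 ± 2.26 and 14.0 ± 9.52). None of the nearest genes named here had an adjusted p under 0.05.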

How the data were processed

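Poly(A) RNA from samples of 12 mice, 3 per group, described as whole brain, was sequenced on an Illumina instrument. Per the labels, the authors used cutadapt 1.9, HISAT2 2.0.4 and StringTie 1.3.4d with mm10. FPKM values were made by the authors with Ballgown and deposited for 55385 genes, with 0.0001 for a gene without an estimate. The deposited estimated counts were also made by the authors. They equal FPKM times length times a library factor (median deviation 0.00813% over 533 single-transcript genes). Read counts would meet this relation too, so whether they are counts of single reads cannot be told from it. The handling of reads with several alignments is not given in the sources used here.

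In R 4.3.3, limma 3.58.1 was fitted (lmFit, and eBayes with a trend) to log2(FPKM + 1) of the 4 groups. A gene was tested if its FPKM averaged 0.1 or more over the libraries (21393 genes), and p was adjusted by Benjamini and Hochberg. It was tested on simulated data. Quantile normalization, median centring, pseudocounts of 0.1 and 0.01, other filters, fits of the 2 groups compared, edgeR 4.0.16 and DESeq2 1.42.0 on the estimated counts, and fits without libraries were alternatives. The genes, lists and tests were chosen with earlier results of these data known. Named genes are the 3 genes, the 5 genes of nearest pattern, relatives and DEGs of the pathway lists, the 5 most abundant hypothalamus markers and the nearest neighbours. Igsf1 as a neighbour, Sstr5, Jpt2, Prkar1a, Kiss1, Gnrh1, Ecel1 and the markers at 0.0001 were named after their values were seen. Some genes that these rules name are not reported here. Coordinates are those of the table, equal for the 3 genes to GENCODE M21. Python 3.11.15, pandas 2.3.3 and matplotlib 3.10.9 were used.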

Additional observations from a re-analysis of the deposited data

How the results depend on the processing

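The differences of the 3 genes between MS_W and C_W or MS_O kept their direction under every alternative run. Their size followed the scale. In C_W against MS_W, pseudocounts of 0.1 and 0.01 gave 4.31 and 4.94 for Arhgap36, 3.76 and 3.87 for Baiap3, and 3.61 and 6.81 for Calcr. In MS_W against MS_O they gave -3.59 and -3.93, -2.58 and -2.62, and -3.09 and -4.79. With edgeR and DESeq2 on the estimated counts, the log2 fold changes in C_W against MS_W were 4.86 and 4.86 for Arhgap36, 3.75 and 3.74 for Baiap3, and 11.26 and 10.89 for Calcr, which depend on the prior count because C_W was at 0. In MS_W against MS_O they were -3.86 and -3.86, -2.60 and -2.60, and -4.49 and -4.51. Centring libraries on their median gave 2.28 for Arhgap36 in C_W against MS_W. Leaving out each library in turn gave 2.33 to 2.40 and -2.25 to -2.11 for Arhgap36, 2.89 to 3.20 and -2.41 to -2.12 for Baiap3, and 1.04 to 1.20 and -1.13 to -0.97 for Calcr.

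Calcr in C_O against MS_O reversed to 0.0096 without C_O72, with or without MS_W95, over a range of -0.32 to 0.0096. None of the 3 tests passed under any alternative: adjusted p was 0.0809 to 0.957 for Arhgap36, 0.565 to 0.993 for Calcr and 0.258 to 1.0 for Baiap3. The hypothalamus markers higher in MS_W than in C_W numbered 8, and those lower 0, with a mean FPKM of at least 1, the cause being in part the fewer genes tested, and 9 to 17 when each library was left out, with 9 without MS_W31. Calcr could not be tested with a mean FPKM of at least 1. No paired analysis was possible because the groups share no replicate numbers. Low estimated counts limit the values of Arhgap36 and Calcr outside MS_W.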
